A study of Mus musculus with 11 samples.

Results

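The genes described here are 8 members of signalling routes that are linked to immune tolerance: Il10, Il10ra and Il10rb (interleukin-10 and its receptor), Tgfb1 and Itgb8 (transforming growth factor beta and an integrin that activates it), Aldh1a2 and Rara (retinoic acid synthesis and a retinoic acid receptor), and Ahr (the aryl hydrocarbon receptor). They were taken by symbol from the deposited RPKM table, and all 8 were found among its 37583 genes. Their RNA was compared across 3 regions of the mouse epididymis, the duct in which sperm mature: the initial segments (IS), the caput/corpus and the cauda. All 3 groups were EGFP+ CX3CR1+ mononuclear phagocytes, sorted in a double sort from CX3CR1 EGFP +/- mice aged 12 weeks, and no group was treated. In these mice EGFP stands in for the fractalkine receptor gene Cx3cr1, so the sort takes every cell with EGFP from that locus and not a single cell type. There were 4 IS libraries (replicates 1 to 4), 3 caput/corpus libraries (replicates 2 to 4) and 4 cauda libraries (replicates 1 to 4), each from 4 epididymides. The sample titles form 2 series, Maj3 (IS 1 and 2, caput/corpus 2, cauda 1 and 2) and Maj4 (IS 3 and 4, caput/corpus 3 and 4, cauda 3 and 4). The labels do not say which animals a library came from, so p-values measure the spread between these libraries, which may in part be technical.

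Interleukin-10 signals through a receptor of an Il10ra and an Il10rb chain to STAT3 and restrains cytokine production by macrophages. TGF-beta1 is secreted in a latent complex and is released by integrins such as alphavbeta8, whose beta chain is Itgb8. Aldh1a2 makes retinoic acid from retinal, Rara is a nuclear receptor that binds it, and Ahr is a transcription factor that senses aromatic ligands, among them tryptophan metabolites. In the gut, phagocytes that make retinoic acid, TGF-beta and interleukin-10 are known for inducing regulatory T cells, and the epididymis is a tissue in which the immune system meets sperm antigens.

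Between 16873180 and 31737132 reads per library fell on genes. Cauda replicate 1 had reads on 13434 genes, against 17053 to 18837 in the other libraries. The count files and RPKM columns of 3 samples (IS 2, caput/corpus 2 and cauda 1) did not hold the same reads. The file under caput/corpus 2 equalled the IS 2 column, and that under cauda 1 the caput/corpus 2 column. The cauda 1 column equalled no file. Epithelial marker sums were 2956 RPKM in the IS 2 column (1306 to 2294 in the other IS columns). They were 542 RPKM in the caput/corpus 2 column (246 and 278 in the others) and 2.07 to 3.85 in the cauda columns. Which source is right was not tested, and the values below follow the column names. The sort gene Cx3cr1 ranged from 168 to 239 RPKM in IS, 87.3 to 148 in caput/corpus and 70.9 to 99.2 in cauda. Csf1r was at 180.4 RPKM or more and Ptprc (CD45) at 83.4 RPKM or more in every library. RPKM scales reads by gene length and library size, so levels can be set beside each other between genes.

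Over the 11 libraries the chains of the interleukin-10 receptor and Tgfb1 stood highest per length, at means of 103 RPKM (Il10ra), 77.0 RPKM (Il10rb) and 71.7 RPKM (Tgfb1). Rara averaged 20.9 RPKM, Aldh1a2 10.4 RPKM and Ahr 7.35 RPKM. The lowest were Il10 at 2.98 RPKM and Itgb8 at 0.341 RPKM. A gene is said to be called where the edgeR quasi-likelihood test, fitted on all 15116 genes that passed the filter on low counts, gave an adjusted p under 0.05 (Benjamini-Hochberg). All 8 members passed that filter. Between IS and caput/corpus 1 of the 8 was called, Aldh1a2, against a background of 3.78% of all genes tested (0.794% higher and 2.98% lower in IS). Between IS and cauda 3 were called (Il10rb higher, Aldh1a2 and Rara lower in IS), against 16.5% of all genes (7.4% higher and 9.06% lower in IS). Between caput/corpus and cauda 0 were called, against 0.615% of all genes (0.582% higher and 0.0331% lower in caput/corpus). There edgeR gave 2 members, Il10rb and Tgfb1, an unadjusted p under 0.05. DESeq2 and voom also called 0 members there, beside 687 and 668 of all genes. With the count files as filed, reads of the IS 2 column were counted as caput/corpus and those of the caput/corpus 2 column as cauda. The file under IS 2, which equals no column, was counted as IS, and the cauda 1 column was left out. In that fit 0 members were called in any comparison, beside 0, 4 and 0 of 15198 genes tested, in the same order of comparisons. Aldh1a2 there differed by -1.10 (IS minus caput/corpus) and -1.83 (IS minus cauda) on the log2 scale. In the 8 libraries whose 2 sources match, 2 members (Aldh1a2 and Rara), 3 members and 0 members were called, beside 954, 2409 and 52 of 15280 genes. In the 5 Maj3 libraries alone 0 members were called in each comparison, beside 0, 30 and 5 of 16119 genes. In both of these fits, with the counts as filed and in Maj3 alone, 0 of the genes named from the 4 pathway lists were called in any comparison either. The median log2 difference of the 8 members was -0.07 for IS minus caput/corpus, 0.21 for IS minus cauda and 0.28 for caput/corpus minus cauda, beside 0.02, 0.05 and 0.02 over all genes.

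**Figure D1:**
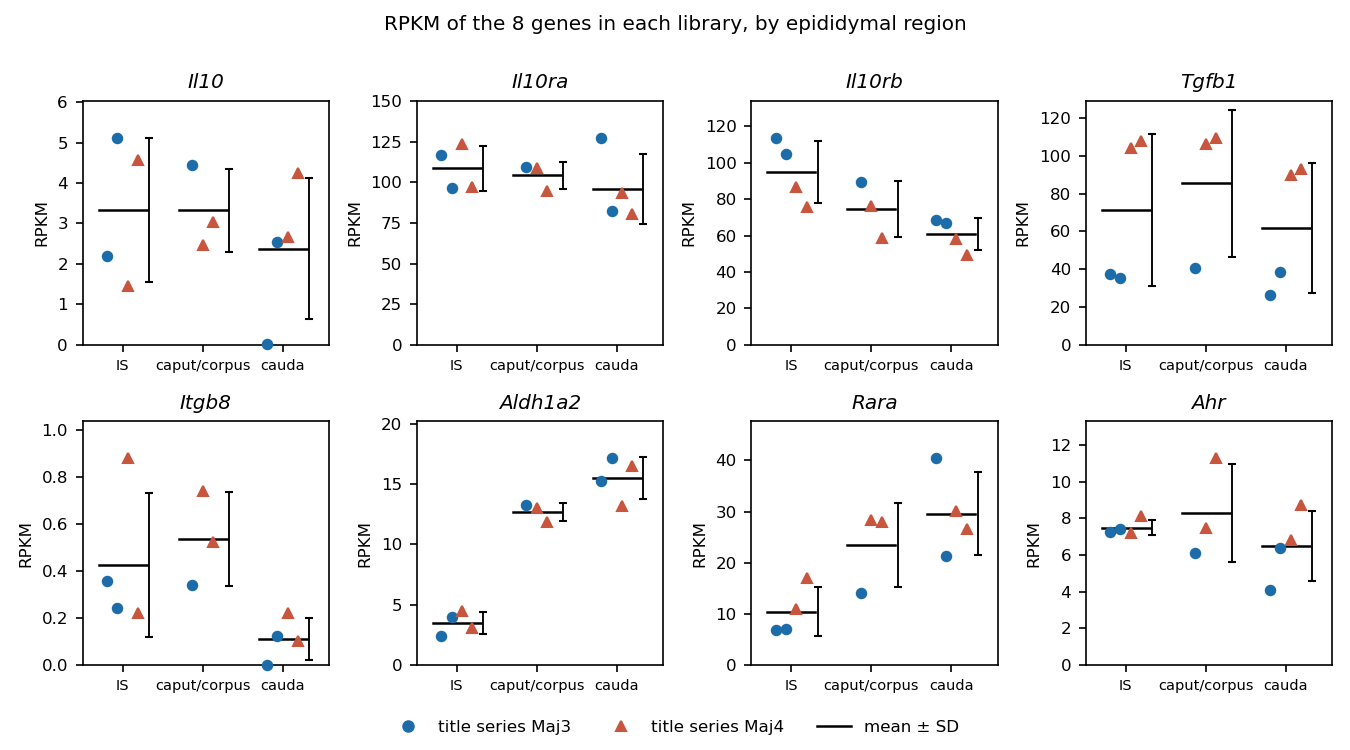
RPKM (linear axes from 0) of the 8 genes in each library of IS, caput/corpus and cauda, with circles for title series Maj3, triangles for Maj4, and lines and bars for the mean ± SD of a region. Aldh1a2 lies at 2.37 to 4.44 RPKM in IS, under all caput/corpus (11.8 to 13.3) and cauda libraries (13.2 to 17.1), and Tgfb1 separates by title series rather than by region.

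**Figure D2:**
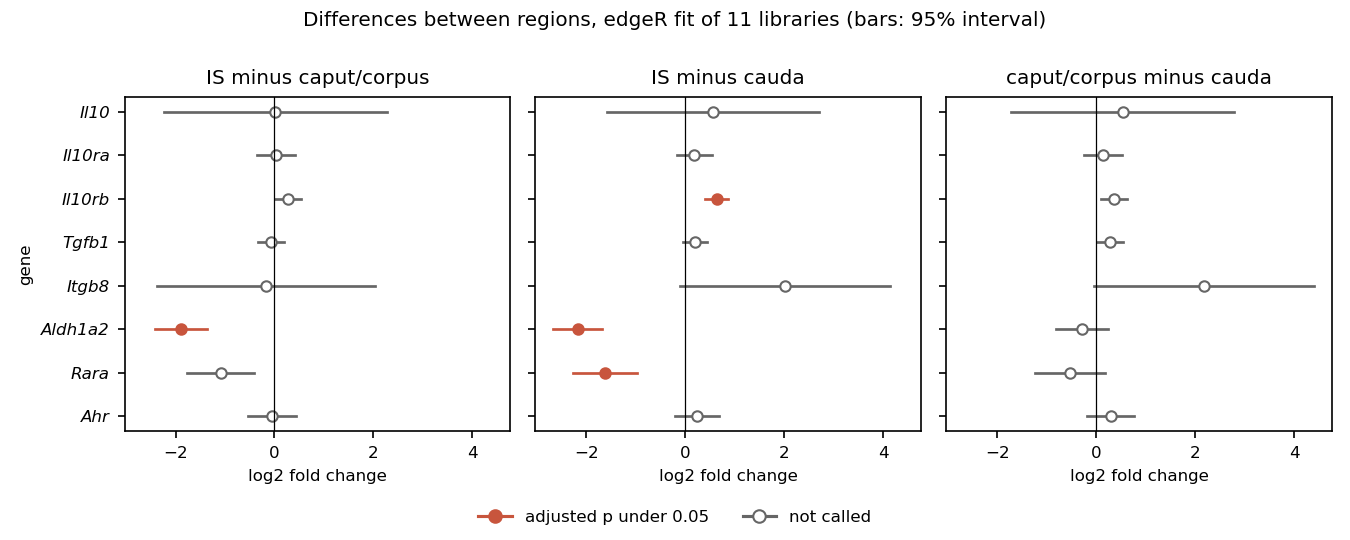
Log2 fold change of the 8 genes in the 3 comparisons of regions, from the edgeR fit of 11 libraries, with bars for the 95% interval. Filled points are genes with an adjusted p under 0.05: Aldh1a2 in both comparisons with IS, and Il10rb and Rara between IS and cauda.

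The clearest regional difference among the 8 genes was in the RNA of Aldh1a2. Aldh1a2, a retinal dehydrogenase that makes retinoic acid, was at 2.37, 3.96, 4.44 and 3.06 RPKM in the 4 IS libraries, at 13.3, 13.0 and 11.8 RPKM in the 3 caput/corpus libraries, and at 15.3, 17.1, 13.2 and 16.5 RPKM in the 4 cauda libraries. Every IS library was below every library of the other regions, and the caput/corpus and cauda ranges overlapped. The regional means were 3.46 ± 0.92 RPKM in IS, 12.7 ± 0.77 RPKM in caput/corpus and 15.5 ± 1.7 RPKM in cauda (SD, n = 4, 3 and 4). Relative to caput/corpus, Aldh1a2 was 3.69-fold lower in IS (log2 difference -1.88 ± 0.23, SE, edgeR adjusted p = 0.00321). Relative to cauda it was 4.52-fold lower in IS (log2 difference -2.18 ± 0.23, adjusted p = 0.000217). Caput/corpus and cauda did not differ beyond their spread (log2 difference -0.29, 95% interval -0.81 to 0.23, adjusted p = 0.700). Within title series, IS minus caput/corpus was -1.74 within Maj4 and -2.10 within Maj3, and IS minus cauda was -1.98 and -2.31. The calls in both comparisons with IS were kept in all 11 fits that leave out a single library.

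Rara, the alpha receptor for retinoic acid, followed the same order of regions with more spread. Its levels were 6.78, 6.93, 11.0 and 17.1 RPKM in IS, 14.0, 28.4 and 27.9 RPKM in caput/corpus, and 40.4, 21.2, 30.2 and 26.5 RPKM in cauda. All IS libraries lay below all cauda libraries, while IS replicate 4 lay above caput/corpus replicate 2. In IS, Rara was 3.09-fold lower than in cauda (log2 difference -1.63 ± 0.29, SE, adjusted p = 0.00408). That call was kept in all 11 fits without a single library. The highest cauda value belongs to cauda replicate 1, and without that library the difference was -1.26 ± 0.17 (adjusted p = 0.000619). Within series, it was -1.01 in Maj4 and -2.12 in Maj3. An interaction of title series and region gave Rara an unadjusted p of 0.0306 and an adjusted p of 1.00 for IS minus cauda. Relative to caput/corpus, Rara in IS differed by -1.09 ± 0.30 on the log2 scale with an adjusted p of 0.0888, which is not a call. Without cauda replicate 1 the same difference was -1.05 ± 0.17 with an adjusted p of 0.00508. Caput/corpus and cauda were not separated (log2 difference -0.54, 95% interval -1.24 to 0.17, adjusted p = 0.567).

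The promoters of Aldh1a2 and Rara are shown because these are the members that were lower in IS than in cauda. RefSeq on GRCm38.p6 gives 4 starts for Rara and 1 for Aldh1a2, and each window holds the 250 bases before a start. That of Aldh1a2 lies at chr9:71215539-71215788 on the plus strand and that of Rara, before its most upstream start, at chr11:98937446-98937695 on the plus strand. Capitals mark matches, on either strand, to AGGTCA (a core site of nuclear receptors), GCGTG (the core bound by the aryl hydrocarbon receptor) or GGGCGG (the GC box).
Aldh1a2: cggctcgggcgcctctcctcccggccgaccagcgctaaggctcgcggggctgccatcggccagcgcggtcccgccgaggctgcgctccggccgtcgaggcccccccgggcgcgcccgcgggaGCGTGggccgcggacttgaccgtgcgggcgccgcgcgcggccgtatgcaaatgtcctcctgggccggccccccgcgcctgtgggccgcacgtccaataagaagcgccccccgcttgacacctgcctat
Rara: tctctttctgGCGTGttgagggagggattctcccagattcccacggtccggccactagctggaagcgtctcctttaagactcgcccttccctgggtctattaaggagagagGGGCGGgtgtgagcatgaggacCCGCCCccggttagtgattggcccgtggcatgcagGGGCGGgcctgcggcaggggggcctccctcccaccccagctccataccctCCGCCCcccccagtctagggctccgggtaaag
Neither window held AGGTCA, and each held 1 match to GCGTG. The Rara window had 4 matches to GGGCGG and the Aldh1a2 window 0. The other 3 Rara windows held 0 matches to GCGTG and AGGTCA, and 4, 0 and 1 to GGGCGG. The bases after the Rara start shown were not found in a GENCODE M21 transcript, while those after 2 of the other starts were. Among 32851 promoter windows of the same length, 14.0% held AGGTCA, 28.2% held GCGTG and 32.7% held GGGCGG. These are matches of letters only. Windows were also found for Tgfb1 and Itgb8, that is for 4 of the 8 members.

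Markers of several cell types moved with region in the same direction as Aldh1a2 and Rara. Over all genes tested, 2.98% were called lower in IS than in caput/corpus and 9.06% lower than in cauda. Of 8 dendritic cell markers 5 were lower in IS than in caput/corpus and 6 lower than in cauda. Their summed level was 193 to 363 RPKM in IS, 723 to 1003 RPKM in caput/corpus and 632 to 1372 RPKM in cauda. Of 6 mature dendritic cell markers only 1 was lower in IS in each comparison. Their sums were 42.4 to 64.1 RPKM in IS, 80.6 to 127 in caput/corpus and 46.4 to 152 in cauda, so IS and cauda overlapped. Of 5 monocyte markers 4 and 5 were lower in IS (sums of 129 to 289, 404 to 632 and 606 to 847 RPKM in IS, caput/corpus and cauda). Of 9 mast cell and basophil markers 8 and 9 were lower in IS (26.1 to 99.3, 621 to 889.8 and 882 to 3451 RPKM). Immediate early and stress genes, which respond to cell handling, were lower in IS for 9 of 10 in both comparisons (1949 to 4438, 4634 to 7064 and 3084 to 8580 RPKM). Markers of stroma and endothelium did not run that way (13.3 to 145 RPKM in IS, 18.8 to 108 in caput/corpus and 3.41 to 28.0 in cauda), and of 6 mesothelial markers, another source of Aldh1a2, Muc16 had no read and Krt19 alone passed the filter. The part of these cells and of handling in the Aldh1a2 and Rara differences was not tested. In sorted bulk samples, fewer cells of a type and less RNA per cell cannot be told apart.

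**Figure D3:**
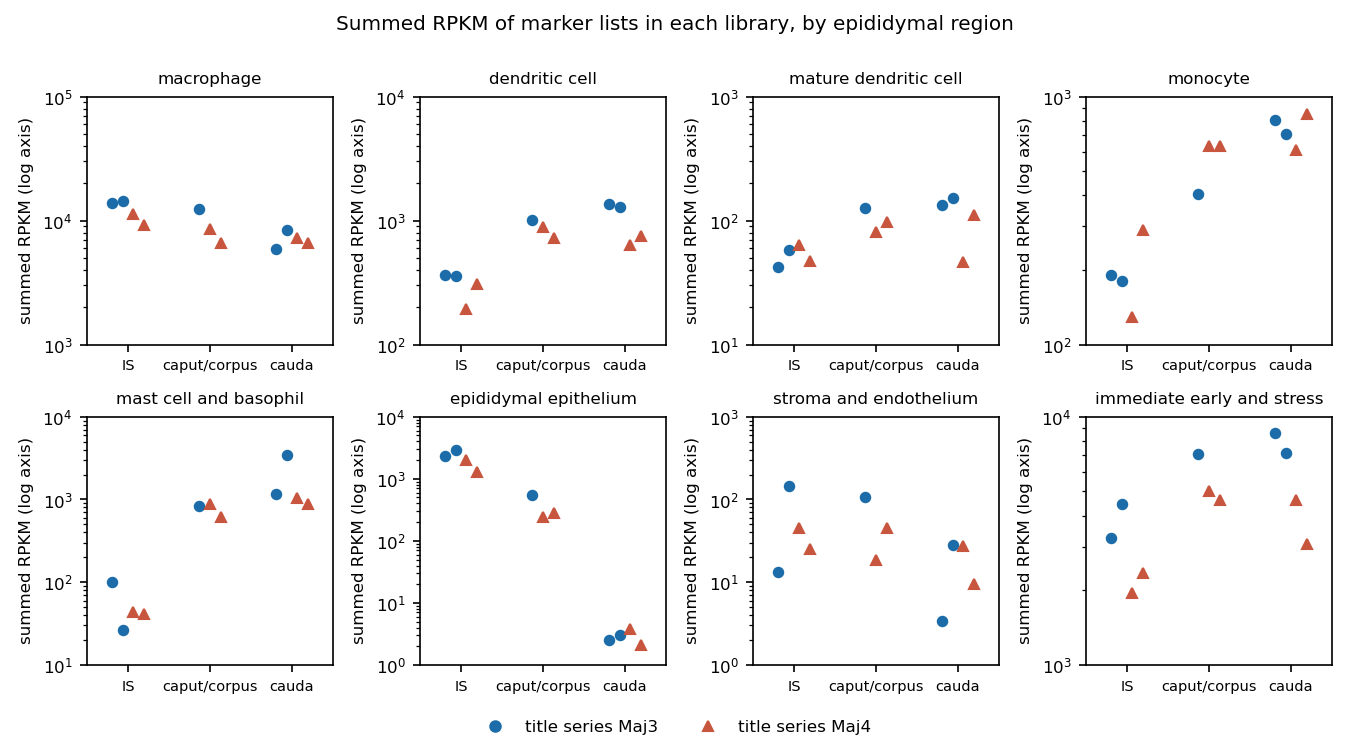
Summed RPKM (log axes) of 8 marker lists in each library by region, with circles for title series Maj3 and triangles for Maj4. Dendritic cell, monocyte and mast cell sums are lower in IS than in caput/corpus and cauda, while the mature dendritic cell sums of IS and cauda overlap. The epididymal epithelium sum is 1306 to 2956 RPKM in IS, 246 to 542 in caput/corpus and 2.07 to 3.85 in cauda.

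The other retinoid genes did not move as a block. Of 20 genes of the retinoid pathway 17 passed the filter on low counts. Between IS and cauda 4 were higher in IS and 2 lower (16.5% of all genes called), with a median log2 difference of 0.65 against 0.05 over all genes. The receptors Rarg and Rarb were lower in IS, as was Rara. Rarg averaged 3.19 ± 1.3 RPKM in IS and 10.3 ± 2.6 RPKM in cauda (SD, n = 4 each), a log2 difference of -1.71 ± 0.25 (SE, adjusted p = 0.00118). Rarb, itself a textbook target gene of retinoic acid, averaged 0.368 ± 0.14 RPKM in IS and 2.98 ± 1.5 RPKM in cauda, a log2 difference of -3.04 ± 0.54 (adjusted p = 0.00377). The other way round, Aldh1a1, another retinal dehydrogenase, ranged from 14.1 to 45.4 RPKM in IS, 19.7 to 43.2 RPKM in caput/corpus and 1.76 to 5.09 RPKM in cauda. Its log2 difference for IS minus cauda was 2.83 ± 0.51 (adjusted p = 0.00425). Tgm2, a transglutaminase that retinoic acid induces in myeloid cells, ranged from 13.8 to 23.6 RPKM in IS and from 0.405 to 3.43 RPKM in cauda (3.68 ± 0.47, adjusted p = 0.000647). All 4 of these calls were kept in all 11 fits without a single library. Within Maj4 and within Maj3 IS minus cauda was -1.65 and -1.70 for Rarg, -3.52 and -2.55 for Rarb, 2.48 and 3.20 for Aldh1a1, and 2.96 and 4.60 for Tgm2. All 4 were also called in Maj4 alone. With the counts as filed their adjusted p was 0.0969 to 0.373, and in Maj3 alone 0.106 to 0.443. Of 13 epithelial markers 12 were higher in IS than in cauda (7.4% of all genes tested were), as were Aldh1a1 and Tgm2. The part of epithelial RNA was not tested.

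Between IS and caput/corpus 1 of the 17 retinoid genes tested was called, against 3.78% of all genes (2.98% lower in IS). It was Rarg, lower in IS (log2 difference -1.30 ± 0.27, edgeR adjusted p = 0.0249, with 9.18 ± 4.8 RPKM in caput/corpus). The call was lost when IS 1, IS 2, IS 4, caput/corpus 3 or caput/corpus 4 was left out, with an adjusted p of up to 0.112. The count for the list was 0 in each of those fits, and 3 without cauda 1. Between caput/corpus and cauda 2 of the 17 were called, against 0.615% of all genes. They were Aldh1a1 (log2 difference 3.05 ± 0.54, edgeR adjusted p = 0.0386) and Tgm2 (2.59 ± 0.47, adjusted p = 0.0398), both higher in caput/corpus. These calls were marginal: Aldh1a1 kept it in 3 and Tgm2 in 2 of the 11 fits. Leaving out IS 1, IS 3, IS 4, any caput/corpus library or cauda 2 ended both calls, leaving out IS 2 or cauda 3 ended that of Tgm2, and leaving out cauda 4 ended that of Aldh1a1. The list's count was then 0 or 1, and the adjusted p with a library left out reached 0.121 for Aldh1a1 and 0.259 for Tgm2. Neither gene was called with the 2 regions fitted alone, within either title series or with the counts as filed.

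RNA for interleukin-10 itself was low in all regions and did not differ detectably between them. Il10 had 2.20, 5.11, 1.45 and 4.56 RPKM in the IS libraries, 4.45, 2.47 and 3.04 RPKM in caput/corpus, and 0.0269, 2.55, 2.65 and 4.26 RPKM in cauda. The ranges overlap, and the lowest value, in cauda replicate 1, rests on 1 read (exact 95% Poisson interval 0.000681 to 0.150 RPKM, counting error only), against 35 to 176 reads in the other libraries. IS minus caput/corpus was 0.02 on the log2 scale with a 95% interval of -2.23 to 2.26 (adjusted p = 0.997), and IS minus cauda 0.55 with an interval of -1.59 to 2.69 (adjusted p = 0.756). Caput/corpus minus cauda was 0.53, with an interval of -1.72 to 2.78 (adjusted p = 0.912). Without cauda replicate 1 the differences from cauda were 0.02 ± 0.50 for IS and 0.05 ± 0.52 for caput/corpus. These intervals leave room for a difference of several-fold in either direction.

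Il10ra, the ligand-binding chain of the receptor, measured 117, 96.7, 124 and 96.9 RPKM in IS, 109.5, 109 and 94.8 RPKM in caput/corpus, and 127, 82.5, 93.7 and 80.3 RPKM in cauda. All 3 groups overlapped, and the highest single value was in cauda replicate 1. The log2 differences were 0.04 (95% interval -0.35 to 0.42) for IS minus caput/corpus, 0.18 (-0.18 to 0.53) for IS minus cauda and 0.14 (-0.24 to 0.52) for caput/corpus minus cauda, with adjusted p of 0.976, 0.516 and 0.830. Without cauda replicate 1, IS minus cauda was 0.35 ± 0.12 (adjusted p = 0.0732).

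Il10rb, the accessory chain that other cytokine receptors share, was higher in IS than in cauda. Its levels were 113.5, 104.6, 86.4 and 75.6 RPKM in IS, 89.2, 76.1 and 58.7 RPKM in caput/corpus, and 68.5, 67.0, 58.3 and 49.2 RPKM in cauda. Every IS library lay above every cauda library, and the caput/corpus libraries overlapped both. In IS, Il10rb was 1.55-fold higher than in cauda (log2 difference 0.63 ± 0.11, SE, adjusted p = 0.00283). The call was kept in all 11 fits without a single library. Within series the difference was 0.60 in Maj4 and 0.74 in Maj3, with adjusted p of 0.104 and 0.135. The neighbouring steps were not called: 0.27 ± 0.12 for IS minus caput/corpus (adjusted p = 0.294) and 0.36 ± 0.11 for caput/corpus minus cauda (adjusted p = 0.243). Of 11 macrophage markers 7 were also higher in IS than in cauda (7.4% of all genes tested were) and Ptprc was lower. The part of these markers' cells in the Il10rb difference was not tested. Il10rb shares exon bases with Gm21970, a gene on the same strand with 0 reads in the table.

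Of 13 genes of the interleukin-10 response, 3 were higher and 3 lower in IS than in cauda (7.4% and 9.06% of all genes tested), with a median log2 difference of -0.09 against 0.05 over all genes. Prdm1, which encodes the repressor BLIMP-1, averaged 7.31 ± 1.2 RPKM in IS and 3.38 ± 0.53 RPKM in cauda (SD, n = 4 each), a log2 difference of 1.10 ± 0.16 (adjusted p = 0.00122). Maf, a transcription factor that promotes Il10 transcription in macrophages and T cells, averaged 31.6 ± 4.5 RPKM in IS and 17.7 ± 6.2 RPKM in cauda (0.87 ± 0.17, adjusted p = 0.00641). Both kept their calls in all 11 fits without a single library, and within Maj4 and within Maj3 the differences were 1.21 and 1.05 for Prdm1 and 0.65 and 1.16 for Maf. Maf was not called in Maj4 alone (adjusted p = 0.152), in Maj3 alone (0.143) or with the counts as filed (0.131), and Prdm1 was called in Maj4 alone but not in Maj3 alone (0.258) or as filed (0.0737). Il4ra, a chain of the interleukin-4 receptor, was higher in IS (0.59 ± 0.14, adjusted p = 0.0192), a call that ended when IS 2 or IS 3 was left out (adjusted p of up to 0.0640) and in Maj4 alone (0.126). Nfil3, a transcription factor, ranged from 2.81 to 7.28 RPKM in IS, 12.0 to 24.0 RPKM in caput/corpus and 7.15 to 20.1 RPKM in cauda. It was lower in IS than in cauda (-1.50 ± 0.39, adjusted p = 0.0256). The list's count of 6 became 3 when IS 1, IS 4 or cauda 2 was left out and 2 when IS 3 was. Nfil3 was not called in these fits or with cauda 3 left out (adjusted p of up to 0.0968). Between IS and caput/corpus 2 of 13 were called, both lower in IS (2.98% of all genes tested were lower): Nfil3 (-1.99 ± 0.43, adjusted p = 0.0328) and Zfp36 (-0.88 ± 0.21, adjusted p = 0.0472), whose product destabilises cytokine mRNAs and which is also induced with the immediate early genes. Each kept its call in 4 of 11 fits. The count was 0 when IS 1, IS 3, IS 4, caput/corpus 3, caput/corpus 4 or cauda 3 was left out, 1 when cauda 2 or cauda 4 was, and 4 when cauda 1 was. Between caput/corpus and cauda 0 of 13 were called by edgeR, where voom called 1. Over all genes edgeR called 93 there and voom 668.

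Tgfb1 RNA separated by title series and not by region. Its levels were 37.5, 35.4, 104 and 108 RPKM in IS, 40.5, 106 and 109 RPKM in caput/corpus, and 26.3, 38.3, 89.7 and 93.1 RPKM in cauda. All 6 Maj4 libraries, from 89.7 to 109 RPKM, lay above all 5 Maj3 libraries, from 26.3 to 40.5 RPKM. In the fit with region and series, Tgfb1 was 2.83-fold higher in Maj4 (log2 difference 1.50 ± 0.10, SE, adjusted p = 2.44e-05), where 20.3% of all genes tested were called between the series (10.6% higher and 9.73% lower in Maj4). This comparison of series was added after the values were seen, and what the series differ in is not stated in the labels. In the count files, 12.5% to 14.7% of reads were not uniquely aligned in Maj4 and 27.6% to 35.8% in Maj3, and reads on no gene were 18.6% to 24.8% in Maj4 and 7.75% to 11.3% in Maj3. Of the other members only Il10rb was called between the series, lower in Maj4 (-0.38 ± 0.09, adjusted p = 0.0159). With series as a covariate, no regional difference in Tgfb1 was called: -0.08 (95% interval -0.34 to 0.18) for IS minus caput/corpus, 0.19 (-0.05 to 0.43) for IS minus cauda and 0.27 (0.01 to 0.53) for caput/corpus minus cauda, with adjusted p of 0.887, 0.287 and 0.408. IS minus cauda was 0.22 within Maj4 and also 0.22 within Maj3.

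Itgb8, the beta chain of the integrin that releases active TGF-beta from its latent form, had the lowest mean RPKM of the members, with fewest reads in cauda. It had 0.357, 0.243, 0.880 and 0.222 RPKM in IS, 0.341, 0.741 and 0.526 RPKM in caput/corpus, and 0, 0.124, 0.219 and 0.103 RPKM in cauda. These rest on 57 to 180 reads per library in IS, 103 to 170 in caput/corpus, and 0, 40, 42 and 26 in cauda. A count of 0 in cauda replicate 1 allows a level of up to 0.00953 RPKM (3 reads, counting error only). All cauda libraries lay below all libraries of the other regions, yet the differences did not pass the test: 2.01 on the log2 scale for IS minus cauda (95% interval -0.11 to 4.13, adjusted p = 0.191) and 2.18 for caput/corpus minus cauda (-0.04 to 4.41, adjusted p = 0.437). Without cauda replicate 1 they were 1.58 ± 0.52 (adjusted p = 0.0557) and 1.80 ± 0.54 (adjusted p = 0.154). IS minus caput/corpus was -0.17 (-2.38 to 2.03, adjusted p = 0.979). The epithelial markers, also lowest in cauda, are given with the marker lists, and their part in these low values was not tested.

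Of 29 further genes of TGF-beta activation and response 28 passed the filter on low counts, and 8 were higher and 2 lower in IS than in cauda (7.4% and 9.06% of all genes tested), with a median log2 difference of 0.72 against 0.05 over all genes. Mmp14, a membrane protease that can activate latent TGF-beta, measured 62.7 to 87.1 RPKM in IS, 16.4 to 53.5 RPKM in caput/corpus and 9.58 to 17.1 RPKM in cauda, and IS minus cauda was 2.42 ± 0.28 (SE, adjusted p = 0.000417). Tgfbr1, the type I receptor, measured 56.1 to 130.1 RPKM in IS, 34.7 to 52.1 RPKM in caput/corpus and 16.0 to 43.9 RPKM in cauda (1.91 ± 0.25, adjusted p = 0.000744). Pmepa1, a target gene of TGF-beta that dampens SMAD signalling, measured 86.1 to 119.8 RPKM in IS, 28.1 to 81.7 RPKM in caput/corpus and 6.59 to 24.9 RPKM in cauda (2.66 ± 0.43, adjusted p = 0.00243). In each of these genes no IS library overlapped with any cauda library. They were named for their low p in this same comparison, so the lack of overlap is no separate support. Nrros, which tethers latent TGF-beta1 to the surface of macrophages and microglia, ran the other way, with 72.3 ± 13 RPKM in IS and 103 ± 22 RPKM in cauda (-0.50 ± 0.08, adjusted p = 0.00255). All 4 kept their calls in all 11 fits without a single library. Within Maj4 and within Maj3 IS minus cauda was 2.32 and 2.60 for Mmp14, 1.84 and 2.07 for Tgfbr1, 2.39 and 3.09 for Pmepa1, and -0.44 and -0.50 for Nrros. Nrros was not called in Maj4 alone (adjusted p = 0.122) or Maj3 alone (0.244), and with the counts as filed its difference was -0.25 (0.552). The other 3 were called in Maj4 alone, and their adjusted p was 0.0680 to 0.113 in Maj3 alone and 0.112 to 0.196 as filed. Epithelial markers (12 of 13) and macrophage markers (7 of 11) were also higher in IS than in cauda, and their part in the TGF-beta genes was not tested.

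Between IS and caput/corpus 2 genes of this list were called, against 3.78% of all genes, and neither was called in Maj4 alone (adjusted p of 0.0562 and 0.0825). Nrros was lower in IS (-0.56 ± 0.09, adjusted p = 0.00851, with 100.2 ± 15 RPKM in caput/corpus), also in all 11 fits without a single library. Tgfbr1 was higher in IS (1.17 ± 0.27, adjusted p = 0.0434), but was called in 4 of those 11 fits. Leaving out IS 1, IS 3, IS 4, caput/corpus 3, caput/corpus 4, cauda 2 or cauda 4 ended its call (adjusted p of up to 0.174) and left 1 gene of the list, while the count was 5 with caput/corpus 2 or cauda 1 left out. Between caput/corpus and cauda 0 were called by edgeR, where DESeq2 called 3 and voom 2, and 1 was called with caput/corpus 3 left out. Over all genes edgeR called 93 there, DESeq2 687 and voom 668, and edgeR 76 with caput/corpus 3 left out.

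**Figure D4:**
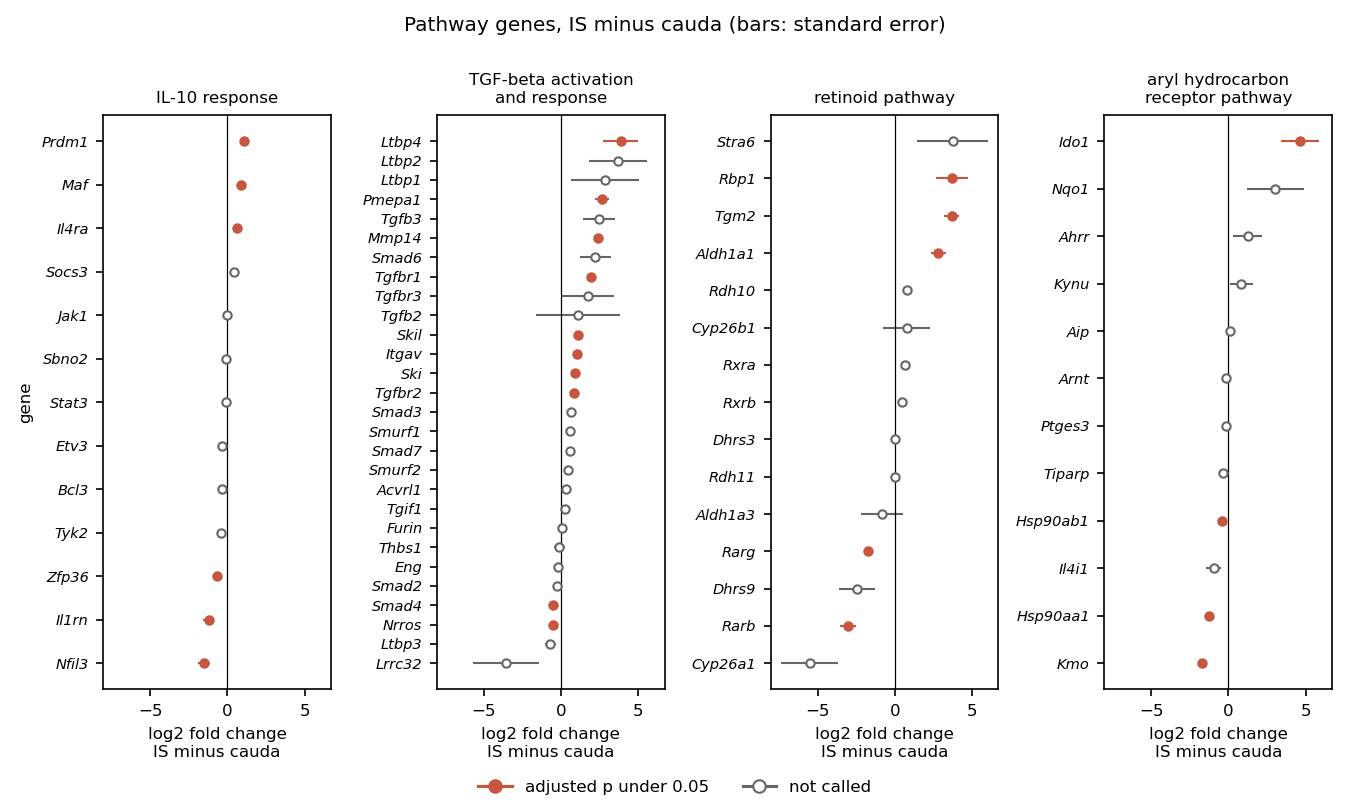
Log2 fold change for IS minus cauda of the tested genes of the 4 pathway lists, from the edgeR fit, with bars for the standard error and filled points for an adjusted p under 0.05. Cyp1b1, Lrat and Rxrg, with 0 reads in cauda, are left out; in the TGF-beta list Pmepa1, Mmp14 and Tgfbr1 lie at 2.66, 2.42 and 1.91, and in the retinoid list Tgm2 and Aldh1a1 lie to the right while Rarg and Rarb lie to the left.

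Ahr, the aryl hydrocarbon receptor, did not differ detectably between regions. Its values were 7.27, 7.45, 7.19 and 8.12 RPKM in IS, 6.13, 7.47 and 11.3 RPKM in caput/corpus, and 4.08, 6.39, 6.81 and 8.73 RPKM in cauda. The 4 IS libraries lay close together inside the range of the caput/corpus libraries and overlapped with cauda. The log2 differences were -0.05 (95% interval -0.54 to 0.43) for IS minus caput/corpus, 0.24 (-0.20 to 0.68) for IS minus cauda and 0.29 (-0.19 to 0.77) for caput/corpus minus cauda, with adjusted p of 0.971, 0.483 and 0.674. In GENCODE M21 the gene shares exon bases with Gm48236 on the opposite strand, and the counting was not stranded.

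Around Ahr, 13 of 17 pathway genes passed the filter, and Cyp1a1, the textbook target of the receptor, had no read in any library. Between IS and cauda 2 were higher and 3 lower in IS (7.4% and 9.06% of all genes tested), with a median log2 difference of -0.19 against 0.05 over all genes. Kmo, an enzyme of the kynurenine route of tryptophan breakdown, measured 7.38 to 14.2 RPKM in IS, 25.5 to 40.5 RPKM in caput/corpus and 28.2 to 58.8 RPKM in cauda. It was lower in IS than in cauda (-1.73 ± 0.25, adjusted p = 0.00126, called in all 11 fits without a single library) and than in caput/corpus (-1.54 ± 0.27, adjusted p = 0.0121, with an adjusted p of 0.0529 when caput/corpus 3 was left out). Within Maj4 and within Maj3 IS minus cauda was -1.45 and -1.92. Ido1, which opens the kynurenine route, had reads in all 4 IS libraries (0.119 to 1.25 RPKM) and all 3 caput/corpus libraries (2.40 to 4.23 RPKM), but in 1 of 4 cauda libraries, with 7 reads. IS minus cauda was 4.63 ± 1.2 (adjusted p = 0.0272), a call that leaving out IS 1, IS 3, cauda 3 or cauda 4 ended (adjusted p of up to 0.0739). Cyp1b1, another target of Ahr, had 427 reads in 4 IS libraries, 349 in 2 of 3 caput/corpus libraries and 0 in 4 cauda libraries. Set against 3 reads over the cauda group, the pooled IS reads give a bound of 151-fold. That bound covers counting error only and not the spread between libraries. Cyp1b1 was called higher in IS than in cauda (edgeR adjusted p = 0.0219). The call ended when IS 2 or IS 3 was left out (adjusted p of up to 0.0550). In Maj4 alone neither Ido1 (adjusted p = 0.0671) nor Cyp1b1 (0.122) was called. Hsp90aa1, a chaperone that holds Ahr and that also responds to heat and handling, was lower in IS than in cauda (-1.25 ± 0.30, adjusted p = 0.0179) and than in caput/corpus (-1.64 ± 0.33, adjusted p = 0.0236), and its relative Hsp90ab1 was lower than in caput/corpus (-0.55 ± 0.13, adjusted p = 0.0417). In the comparison with caput/corpus these were all 3 genes called, 0 of them higher in IS (3.78% of all genes tested were called). In Maj4 alone only Hsp90aa1 of the 3 was called. There the count was 1 when IS 1, IS 3, IS 4 or caput/corpus 4 was left out and 0 when caput/corpus 3 was. In the comparison with cauda it was 2 when IS 1 was left out, 1 when IS 3 was, and 3 when IS 4 or cauda 3 was. Between caput/corpus and cauda 0 were called by edgeR, where DESeq2 called 3 and voom 1, and 1 was called with caput/corpus 3, cauda 1 or cauda 2 left out. Over all genes edgeR called 93 there, DESeq2 687 and voom 668. With caput/corpus 3, cauda 1 or cauda 2 left out, edgeR called 76, 205 and 66 genes. Immediate early and stress genes moved with these chaperones, as given with the marker lists, and their part was not tested. Like Ido1 and Cyp1b1, epithelial markers were higher in IS than in cauda (12 of 13). In caput/corpus 8 of 13 were higher than in cauda (0.582% of all genes tested were). Ido1 stood highest in caput/corpus and the epithelial sums in IS. The part of epithelial RNA in Ido1 and Cyp1b1 was not tested.

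The genes most like each member were taken as those with the smallest root mean square difference of centred log2 CPM over the 11 libraries. Nearest to Aldh1a2 were Ier5l (0.24), the heparanase gene Hpse (0.27) and Gm3788 (0.31). Hpse, for instance, averaged 3.22 RPKM in IS, 12.2 RPKM in caput/corpus and 14.6 RPKM in cauda. Nearest to Rara were Cyfip2 (0.16), Cytip (0.18) and Fam117a (0.19). Il10rb was closest to Tmem173, which encodes the DNA sensor adaptor STING (0.10), then to the Fc receptor gene Fcgr1 (0.12) and Rnpep (0.12). Fcgr1 averaged 88.1 RPKM in IS, 72.2 RPKM in caput/corpus and 52.5 RPKM in cauda. Tgfb1 was closest to Polr2a (0.16), Atxn2l (0.17) and Kdm5c (0.17), Ahr to Pcmtd1 (0.14), Faf2 (0.15) and Tmtc3 (0.18), and Il10ra to Sphk2 (0.11), Neu1 (0.12) and Stx5a (0.13). The nearest patterns lay further off for the low genes, at 0.38 for Il10 (Lipt1, then Foxd2 and Chst7) and 0.52 for Itgb8 (Myo6, then Srr and Armc2).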

How the data were processed

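RNA-seq of 11 libraries was analysed from 2 kinds of deposited values. The deposited count files give raw counts for each Ensembl gene, and the deposited RPKM table scales reads by gene length and library size. Per the submitters' processing notes, STAR, HTSeq and edgeR were used (versions not given in the sources used here), with build mm9. Counting was unstranded per the count files' names. Reads aligned to several places were left out.

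RPKM values are the authors'. Whole reads were recovered from each RPKM column (all 37583 values whole within 0.001) and tested in edgeR 4.0.16 under R 4.3.3: quasi-likelihood F test, region plus title series, TMM, filterByExpr by region. Log2 differences are from this fit, and the standard error was derived from its F statistic. Intervals are 95%. DESeq2 1.42.0 and limma 3.58.1 (voom, and log2 of RPKM + 1) were alternatives. The code was tested on simulated counts.

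Because 10 of 11 columns equal a count file but 3 samples conflict, columns were used as named. Symbols were those of the deposited RPKM table. Nrros, Adgre1 and Chil3 stand there as Lrrc33, Emr1 and Chi3l3 and were matched through RefSeq synonyms. GENCODE M21, which names 32860 of the 37583 identifiers, was used to find shared exon bases. The members and the 4 pathway and 12 marker lists were chosen with earlier results of these data known. Named pathway genes are up to 4 called per list and comparison, in order of p; the 3 most alike genes are named per member. The title series test and its interaction with region were added after values were seen. Intervals and floors cover counting error only, where stated.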

Additional observations from a re-analysis of the deposited data

Results flagged for a closer look

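A deposited count file entered only the fit with the counts as filed, where it stood as an IS library. This file, under IS replicate 2 and with 30383072 reads on genes, equals no column of the RPKM table. In CPM (counts scaled to library size) it held all 8 genes: 12.9 for Il10, 720.0 for Il10ra, 251 for Il10rb, 85.3 for Tgfb1, 6.02 for Itgb8, 13.2 for Aldh1a2, 79.6 for Rara and 82.3 for Ahr. Il10 and Ahr were above the range of the 11 named columns, 0.0337 to 6.51 CPM and 24.97 to 76.1 CPM. The other 6 genes were inside it. Its region was not inferred. In 16 groups of 4 libraries (the 8 genes in IS and in cauda), 0 held a library past Dixon's 95% critical value, a test with little reach in groups of 4; chance flags about 1 group in 20. Il10 nonetheless rested on 1 read in cauda 1, where cauda 2, 3 and 4 gave 97, 60 and 127.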

How the results depend on the processing

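The alternatives were another scaling (RLE), no filter on low counts, DESeq2, voom, limma on log2 RPKM, no title series, a replicate block, counts as filed, each title series alone, the libraries whose 2 sources match, only the 2 regions compared, and each library left out. Everything planned was run. The counts as filed put reads of the IS 2 column into caput/corpus and those of the caput/corpus 2 column into cauda. They also put the file under IS 2, which equals no column, into IS and left out the cauda 1 column. Each region has 3 or 4 libraries, which limits what can be called, and why a count moved was not tested.

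Between IS and caput/corpus 571 genes were called. The count was 1343 with DESeq2, 1707 with voom, 934 with limma on RPKM, 233 without title series, 954 in the libraries whose sources match, 914 with the 2 regions alone, and 0 with the counts as filed and in Maj3 alone (1166 and 404 at an unadjusted p under 0.05). Leaving out a library gave 234 (without caput/corpus 3) to 1353 (without cauda 1). Between IS and cauda 2488 were called, against 3810 with DESeq2, 4399 with voom, 1481 without title series, 4 as filed, 1144 in Maj4 alone and 30 in Maj3 alone; leaving out a library gave 1641 (without IS 3) to 3124 (without cauda 1). Between caput/corpus and cauda 93 were called, against 184 with no filter, 687 with DESeq2, 668 with voom, 143 with limma on RPKM, 41 with the replicate block, 0 as filed, 28 in Maj4 alone, 5 in Maj3 alone, 52 in the libraries that match and 8 with the 2 regions alone; leaving out a library gave 29 (without caput/corpus 2) to 205 (without cauda 1).

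The 1 member called between IS and caput/corpus became 2 with DESeq2, in the libraries that match, with the 2 regions alone and without cauda replicate 1 (Rara added, range 1 to 2 with a library left out), 3 with voom, and 0 as filed and in Maj3 alone. The 3 members called between IS and cauda became 2 in Maj4 alone, 4 with voom and 0 as filed and in Maj3 alone.

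Replicate numbers pair no samples by the labels: same-numbered samples of a title series correlated at -0.014 to 0.394 over 10 pairs after region, and differently numbered ones at 0.016 to 0.180 over 10 pairs. The pairs among IS 2, caput/corpus 2 and cauda 2 (0.281, 0.290 and 0.394) were above all of the differently numbered pairs after region. After region and title series the same pairs were, in that order, 0.284, 0.215 and 0.054. The differently numbered pairs then lay between -0.547 and 0.077, so the last of these pairs was no longer above them all. With the replicate block, 398, 2362 and 41 genes and 1, 3 and 0 members were called.

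No called member changed direction. Among uncalled values, Il10 in IS minus caput/corpus was -0.29 with voom, -0.036 with limma on RPKM, -0.0040 without title series, -0.31 in Maj3 alone and -0.048 with the 2 regions alone, and -0.37 to 0.61 with a library left out. Il10 from cauda was -0.20 (Maj4 alone) and -0.20 (matching libraries) for IS, and -0.32 in both for caput/corpus. Ahr in IS minus caput/corpus was 0.0041 with the block, 0.11 as filed and 0.24 in Maj3 alone (-0.16 to 0.15 with a library left out), and IS minus cauda was -0.019 in Maj4 alone. In IS minus caput/corpus, Il10ra was -0.049 with the block and -0.066 in Maj3 alone (-0.080 to 0.11), Itgb8 0.022 with the block and 0.11 as filed (-0.58 to 0.16), and Tgfb1 0.013 as filed. Rara in caput/corpus minus cauda was 0.0039 in Maj4 alone. As filed, Nfil3 (0.048) and Hsp90aa1 (0.45) in IS minus cauda and Hsp90ab1 (0.47) in IS minus caput/corpus also turned.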
